A study of Mus musculus with 16 samples.

Results

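The m6A peak list of MC38 cells labelled Ythdf2-KO was set against the list of MC38 cells labelled WT, gene by gene. MC38 is a mouse colon adenocarcinoma line. Members are all peaks of both lists, 19236 for WT and 17428 for Ythdf2-KO, which is 36664 of the 60036 peaks in the series. The remaining peaks belong to a YTHDF2 RNA immunoprecipitation (RIP) list. Each peak consists of 1 or more exonic blocks and carries 1 gene. Each gene was described by its number of peaks and by its exonic peak bases, that is, the blocks of its peaks merged and summed. The m6A lists touched 9807 genes. Titles carry the tag gNC for WT and gY2 for Ythdf2-KO; if these name guides, the WT cells carry a control guide. No treatment separates the groups. Each m6A group has 3 immunoprecipitation libraries and 3 input libraries, but 1 peak list; the sources used here do not say how libraries were combined. Peaks therefore carry no replicate error, and the depth of the immunoprecipitations is unknown. Whether the knockout is a pool or 1 clone, and whether replicates came from separate cultures, is not given either, so a p-value below reflects only how much these libraries varied, possibly for technical reasons.

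N6-methyladenosine (m6A) is a modification of adenosine inside mRNA. A writer complex around METTL3 and METTL14 places it co-transcriptionally, mostly in a DRACH context, of which GGACT is a frequent form, and often near the stop codon and in long internal exons. FTO and ALKBH5 can remove it. YTHDF2 is a cytoplasmic reader that binds methylated transcripts and recruits the CCR4-NOT deadenylase, so it acts downstream of the mark rather than placing it. MeRIP sequencing enriches m6A-carrying RNA fragments with an antibody and calls peaks where the enriched fragments exceed the input.

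The sequences below show what the lists mark in some transcripts whose peaks differed between them. They are examples, and many of the largest differences in score or bases, such as those of Maf and Zbp1, are not among them. Deposited scores of the peaks shown ran from 1e-103 in H2-D1 to 4.4e-06 in Prokr1, and a smaller score is read below as a stronger peak. They were read from the GRCm38 (mm10) transcripts of GENCODE release M21, on the transcript strand, 5′ to 3′, with GGACT in capitals. The first 4 are whole coding peaks. Cx3cl1 is the 121-base peak of the Ythdf2-KO list (chr8:94779698-94779818, plus strand), which lies inside a wider WT peak. H2-D1 is the 210-base peak with the smallest score in that gene (chr17:35263402-35263611, plus strand), and it was in the WT list alone. Tgtp1 is its single WT peak (chr11:48987453-48987663, minus strand, 211 bases). Elf4 is a peak of 211 bases in 2 blocks found in the Ythdf2-KO list alone (chrX:48416864-48417920, minus strand). H2-D1 and Tgtp1 each have close homologues, so their reads and peaks could be shared with another gene.
Cx3cl1: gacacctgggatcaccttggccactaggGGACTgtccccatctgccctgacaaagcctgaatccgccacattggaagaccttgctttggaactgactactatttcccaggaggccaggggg
H2-D1: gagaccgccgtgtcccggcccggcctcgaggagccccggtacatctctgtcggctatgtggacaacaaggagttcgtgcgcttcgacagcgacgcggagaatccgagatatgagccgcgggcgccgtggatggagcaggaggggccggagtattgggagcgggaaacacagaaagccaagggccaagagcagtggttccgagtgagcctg
Tgtp1: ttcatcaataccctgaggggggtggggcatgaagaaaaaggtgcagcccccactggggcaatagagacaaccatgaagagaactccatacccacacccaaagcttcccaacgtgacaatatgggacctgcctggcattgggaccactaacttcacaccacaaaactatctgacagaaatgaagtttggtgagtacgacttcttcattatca
Elf4: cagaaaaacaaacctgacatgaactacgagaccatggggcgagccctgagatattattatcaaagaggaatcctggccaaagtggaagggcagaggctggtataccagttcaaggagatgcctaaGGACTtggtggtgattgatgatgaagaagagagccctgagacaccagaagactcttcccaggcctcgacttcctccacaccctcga

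The next sites are 29-base windows around a GGACT inside peaks of other genes. Those of Ccl2 (chr11:82037175-82037203, plus strand), Lif (chr11:4269346-4269374 and chr11:4271788-4271816, plus strand), Nfkbia (chr12:55489882-55489910, minus strand) and Igf2bp2 (chr16:22059627-22059655, minus strand) were in the WT list alone, all in the 3′ UTR. Those of Sstr5 (chr17:25490392-25490420 and chr17:25490364-25490392, minus strand, 3′ UTR) and Prokr1 (chr6:87580567-87580595 in the 3′ UTR and chr6:87581225-87581253 in coding sequence, minus strand) were in the Ythdf2-KO list alone.
Ccl2: ctagtgtgactcGGACTgtgatgccttaa
Lif first: tgaatgtaccatGGACTgagggacctcag
Lif second: tcagggaccaatGGACTctctccgtgcac
Nfkbia: caaaaagaatgtGGACTtgtatatttgta
Igf2bp2: caaagaaagaatGGACTctctctccatct
Sstr5 first: gaggcttccctgGGACTgagagacgacga
Sstr5 second: aggacacacaggGGACTtaacagccttcc
Prokr1 first: gaggagccacttGGACTctgggtgccatt
Prokr1 second: caccgaggaggtGGACTgcatccgactga
The H2-D1 and Tgtp1 peaks hold no GGACT, which says only that these letters are not in those windows.

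The input libraries were the only ones with counts. CPM below are counts scaled to library sizes adjusted by edgeR's TMM factors, not to the plain totals. Total counts ran from 45441281 to 50959555 per library, and 3 counts equal 0.0582 to 0.0652 CPM, which is the upper limit for a gene at 0 (counting error only). On the first principal component, with 50.8% of the variance, the WT libraries lay between -31.8 and -30.3. KO-labelled replicate 1 lay at -8.64, and the other two at 51.8 and 50.6, so KO-labelled replicate 1 stood between the groups. Of 18969 genes tested, edgeR called 568 higher (2.99%) and 293 lower (1.54%) in the KO-labelled inputs at an adjusted p below 0.05. Without KO-labelled replicate 1 it called 3782 and 3144. Without WT replicate 1 it called 53 and 40, and without WT replicate 2, WT replicate 3, KO-labelled replicate 2 or KO-labelled replicate 3 it called 0 and 0, 3 and 2, 1 and 3, and 1 and 0. Unadjusted, 5596 genes had p below 0.05 by edgeR with all libraries and 4011 without WT replicate 2. With the replicate number as a block it called 45 higher and 26 lower, and with DESeq2 2151 and 1142. With upper-quartile factors edgeR called 348 higher and 395 lower, so the split between directions depends on the scaling, which moves the median of all genes to -0.09. For 31 called genes the edgeR adjusted p is printed below, and others such as Neat1 and Hmgb1 are named without it. Of the 31, 31 kept their call without KO-labelled replicate 1 and 9 without WT replicate 1. It was kept by 1 each without WT replicate 3 or KO-labelled replicate 2, and by 0 without WT replicate 2 or KO-labelled replicate 3. The adjusted p printed after a semicolon is the highest of these fits for a called gene, and that without KO-labelled replicate 1 for a gene that was not called. Epithelial markers were at or near 0 in all libraries (7 markers, none at 1 CPM, summed 0.136 to 0.467 CPM, with Epcam, Krt18 and Cldn7 at 0). Of 9 fibroblast markers, 6 were above 1 CPM in every library, and they summed to 2118 to 2677 CPM in WT and 1505 to 2643 CPM in KO-labelled inputs, most of it Col3a1. The 11 leukocyte and endothelial markers summed to 12.6 to 14.5 CPM in WT and 8.75 to 11.3 CPM in KO-labelled inputs, with Adgre1 and Cd8a at 0. A bulk sample cannot tell fewer cells of a type from less RNA per cell.

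Most genes kept their m6A mark in both lists, with somewhat fewer marked bases in the Ythdf2-KO list. Of the 9807 genes, 8306 had a peak in both lists, 1121 in the WT list alone and 380 in the Ythdf2-KO list alone. Peak bases summed over genes were 6230723 in WT and 5608726 in Ythdf2-KO, a ratio of 0.900, and 79.6% of the WT bases and 88.5% of the Ythdf2-KO bases were shared. Median peak width was 241 bases in both lists, with quartiles of 151 and 391. Shared peaks had a median of 299 bases in WT and 270 in Ythdf2-KO, so the equal medians over all peaks do not mean that matching peaks were equally wide.

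A gene was said to have fewer or more bases where its sums differed at least 2-fold, genes at 0 included. By that measure 1737 genes (17.7%) had fewer and 540 (5.51%) had more in the Ythdf2-KO list. Of these, 616 of the genes with fewer and 160 of those with more had a peak in both lists. Genes marked in 1 list alone were mostly marked once and briefly: 910 of the 1121 WT genes had a single peak and their median was 150 bases, and 345 of the 380 Ythdf2-KO genes had a single peak with a median of 120 bases. Genes in both lists had a median of 540 WT bases. Their ratio of Ythdf2-KO to WT bases had a median of 0.957 and quartiles of 0.797 and 1.07.

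**Figure D1:**
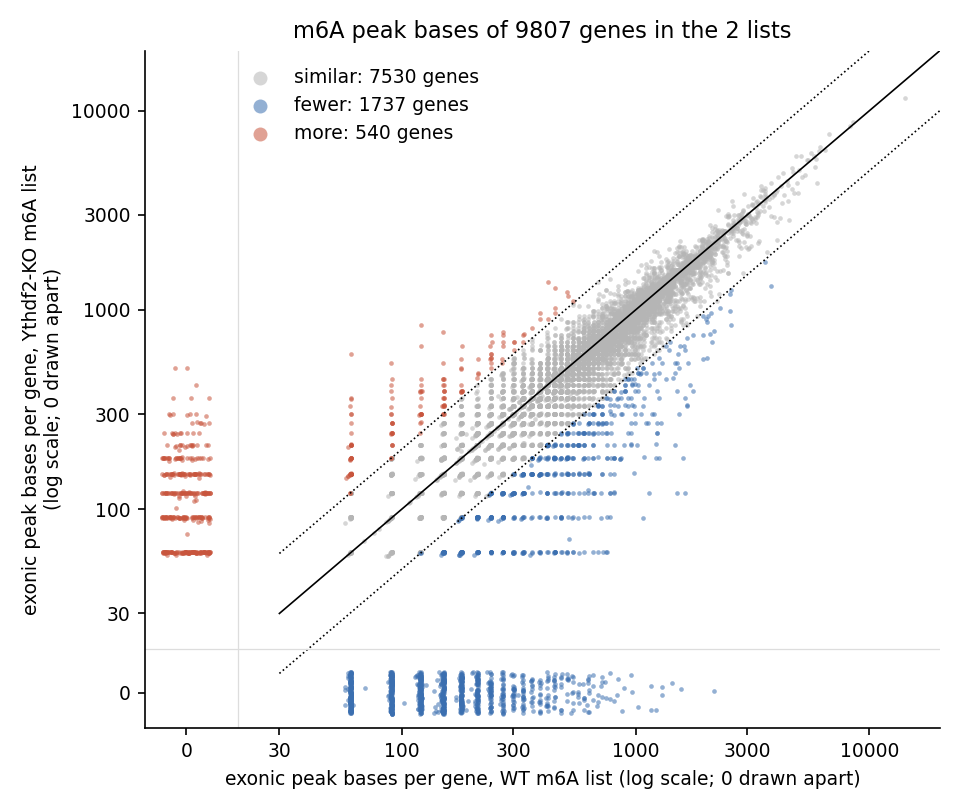
Each point is 1 of 9807 genes, with its exonic m6A peak bases in the WT list (x axis, bases, log scale) and the Ythdf2-KO list (y axis, bases, log scale), genes at 0 drawn apart with a small random offset. The solid line marks equality and the dotted lines 2-fold; 1737 genes lie at or below the lower line and 540 at or above the upper one, most of them at low base counts.

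The number of peaks and the number of bases are separate measures. Among the 8306 genes in both lists, 5526 had the same number of peaks, 1677 fewer and 1103 more in the Ythdf2-KO list. In 271 genes there were fewer peaks but at least as many bases, and in 347 more peaks but no more bases. Ahnak, which encodes a giant scaffold protein, shows the latter: it went from 12 peaks and 14223 bases in WT to 23 peaks and 11625 bases, the largest difference in bases of any gene with a peak in both lists. Samd9l, an interferon-induced antiviral gene, went from 3 peaks and 4530 bases to 8 peaks and 2826 bases. Peaks were split between the lists in many genes: 663 WT peaks were each touched by 2 or more Ythdf2-KO peaks, and 578 Ythdf2-KO peaks by 2 or more WT peaks.

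Peaks found in 1 list alone were narrow and had weak scores. The deposited score was read as a p-value, from its values alone, so a smaller score is a stronger peak. The 3784 WT peaks with no overlap in the Ythdf2-KO list had a median width of 121 bases and a median −log10 score of 8.0, against 299 bases and 29 for the 15452 that were shared. The 1860 peaks of the Ythdf2-KO list alone had 120 bases and 7.76, against 270 bases and 29.9. In the WT list 34.1% (95% exact interval 31.9 to 36.4) of peaks with −log10 scores of 5 to 7 were shared, 88.2% (86.6 to 89.7) at 15 to 20 and 99.4% (99.1 to 99.7) at 50 to 100. The Ythdf2-KO list gave 43.3% (40.3 to 46.4), 95.9% (94.8 to 96.8) and 99.9% (99.7 to 100.0) in the same ranges. At every score the share was higher for Ythdf2-KO peaks, against the longer list, than for WT peaks, against the shorter one. These intervals cover counting error only.

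**Figure D2:**
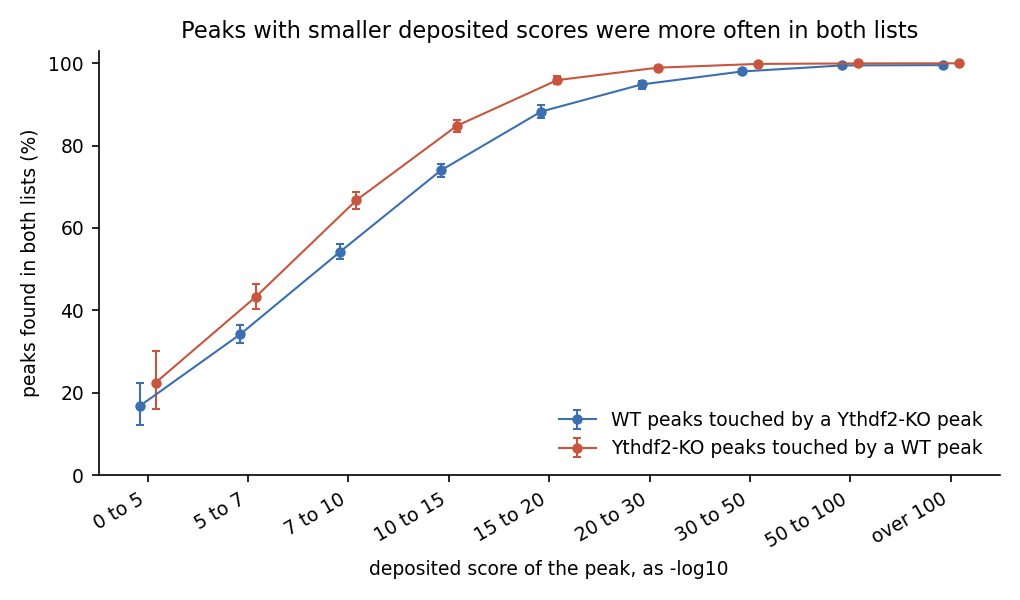
The share of peaks that overlap a peak of the other list by at least 1 base (y axis, %) is plotted against the peak's deposited score (x axis, −log10, in 9 ranges), with 95% exact intervals for counting error. Both curves climb from 16.7% and 22.4% in the weakest range to above 99% in the 2 strongest.

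Peaks of 1 list and shared peaks differed in position along the transcript. Of WT peaks placed on a coding transcript, 42% (40.2 to 43.9) of those in the WT list alone lay in the 3′ UTR, against 33.2% (32.4 to 34.0) of shared ones. Of peaks in the Ythdf2-KO list alone, 36.8% (34.3 to 39.4) lay there, against 33.3% (32.5 to 34.1) of shared Ythdf2-KO peaks. Within 200 bases of the stop codon, where m6A is typically dense, lay 22.3% (20.8 to 23.9) of WT-alone peaks, 17.1% (15.2 to 19.1) of Ythdf2-KO-alone peaks and 26.5% (25.7 to 27.2) of shared WT peaks. Peaks of 1 list thus lay less often near the stop codon than shared peaks, and more often in the 3′ UTR, by less for the Ythdf2-KO list.

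The letters GGACT, searched on the transcript strand only, were in the central 120 bases of 17.8% (16.4 to 19.2) of WT-alone peaks, 19.1% (17.0 to 21.2) of Ythdf2-KO-alone peaks and 19.7% (19.0 to 20.3) of shared WT peaks. They were in 10.8% of 204621 windows of the same length outside peaks in the same transcripts. The reversed letters TCAGG were in 13.8%, 13.4% and 13.9% of these peaks and in 14.2% of the outside windows. Every class of peak held GGACT more often than the outside windows, with overlapping intervals between classes, and none held TCAGG more often. A YTHDF2 RIP peak overlapped 37.0% (35.4 to 38.5) of WT-alone peaks and 37.2% (35 to 39.4) of Ythdf2-KO-alone peaks, against 51.1% (50.3 to 51.9) of shared WT peaks. Of genes with fewer bases 48.1% had a RIP peak anywhere, of those with more 43.9%, and of the 7530 others 62.4%. Width differs between these classes of peak as given above, and its part in the overlaps was not tested. Median input was 12.8 CPM for genes with fewer bases, 15.0 CPM for those with more and 49.4 CPM for the others. The part of this level in the RIP shares was not tested either.

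Base counts and scores could go in different directions. Among the 616 genes with a peak in both lists and fewer bases, the best score was smaller, and so stronger, in the Ythdf2-KO list in 130. It was stronger there in 129 of the 160 with more bases, and in 3643 of the 7530 others. Cx3cl1, whose product fractalkine is a membrane-anchored chemokine, is one of the 130. Its WT peak (chr8:94779608-94779938) covers 331 bases at a score of 4e-15, and the Ythdf2-KO peak inside it covers 121 bases at 1e-33. Alkbh5, the demethylase, has 3 peaks in each list, but they cover 991 bases in WT and 392 in Ythdf2-KO. All 3 have smaller scores in the Ythdf2-KO list, for instance 1.6e-67 against 3.2e-57 near the stop codon. In such genes a smaller sum of bases is not a weaker peak.

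The question posed beside the peaks was whether genes that gained or lost marked bases also changed in the input. Genes called lower by edgeR often had fewer bases, and genes called higher seldom did. Of the 153 called-lower genes with a peak in either list, 67 had at least 2-fold fewer bases (43.8%, 95% exact interval 35.8 to 52.0), 84 were similar and 2 had more, against 17.7% fewer and 5.51% more over all 9807. Of the 440 called-higher genes, 48 had more (10.9%, 8.15 to 14.2), 370 were similar and 22 had fewer (5.0%, 3.16 to 7.47). Most called genes thus changed in the input with no 2-fold change in marked bases. With KO-labelled replicate 1 left out of the fit the shares were 42.3% of 1685 called-lower genes with fewer bases, and 7.10% with more and 9.11% with fewer of 2787 called-higher genes. In the fits without WT replicate 2 or 3, or KO-labelled replicate 2 or 3, too few genes were called to give a share. Whether these input libraries entered the peak calls was not given, and peaks need reads of the transcript, so the measures are not independent.

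Across the whole range of input changes the relation was not a straight line. Of 139 genes with an input log2 fold change between -2 and -1, 82.0% had fewer bases, of 541 between -1 and -0.5 57.9%, and of 4594 within 0.2 of 0 11.4%. The share was 7.98% of 2054 genes between 0.2 and 0.5. It then climbed again, to 25.8% of 163 genes between 1 and 2, where 22.7% had more bases. Only 10 genes lay above 2, of which 5 had fewer bases and 1 more. With KO-labelled replicate 1 left out of the fold change, the share with fewer bases was 75.7%, 47.4%, 10.2%, 7.02% and 25.2% in the same ranges. Of genes at 3 to 10 CPM 41.4% had fewer bases and 11.0% more, and of those at 30 to 100 CPM 9.09% and 3.66%.

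The share with fewer bases also moved with the disagreement among the KO-labelled inputs. That disagreement is given as the log2 ratio of the highest to the lowest CPM among the 3 libraries. Where it was at most 0.25, 7.88% of 4277 genes had fewer bases, and where it was over 1.5, 75.2% of 218. The share with more bases stayed between 4.54% and 7.71% over those ranges. Among genes above 30 CPM the same ranges gave 5.95% of 3242 and 87.5% of 24. Among genes up by at least 1 on the log2 scale, 2 of 30 had fewer bases where the disagreement was at most 0.5, and 37 of 83 where it was over 1. Among the WT inputs the share went from 13.4% of 6152 genes at a disagreement of at most 0.25 to 38.8% of 67 above 1.5. Among genes down by at least 1, 11 of 15 had fewer bases at a disagreement of at most 0.5 and 93 of 109 at one over 1, so there the share was high throughout. Wide disagreement among the KO-labelled inputs thus went with fewer bases, most plainly in genes with a higher or flat input. The part of this disagreement in the peak calls was not tested, since the signal of single immunoprecipitation libraries was not analysed here.

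**Figure D3:**
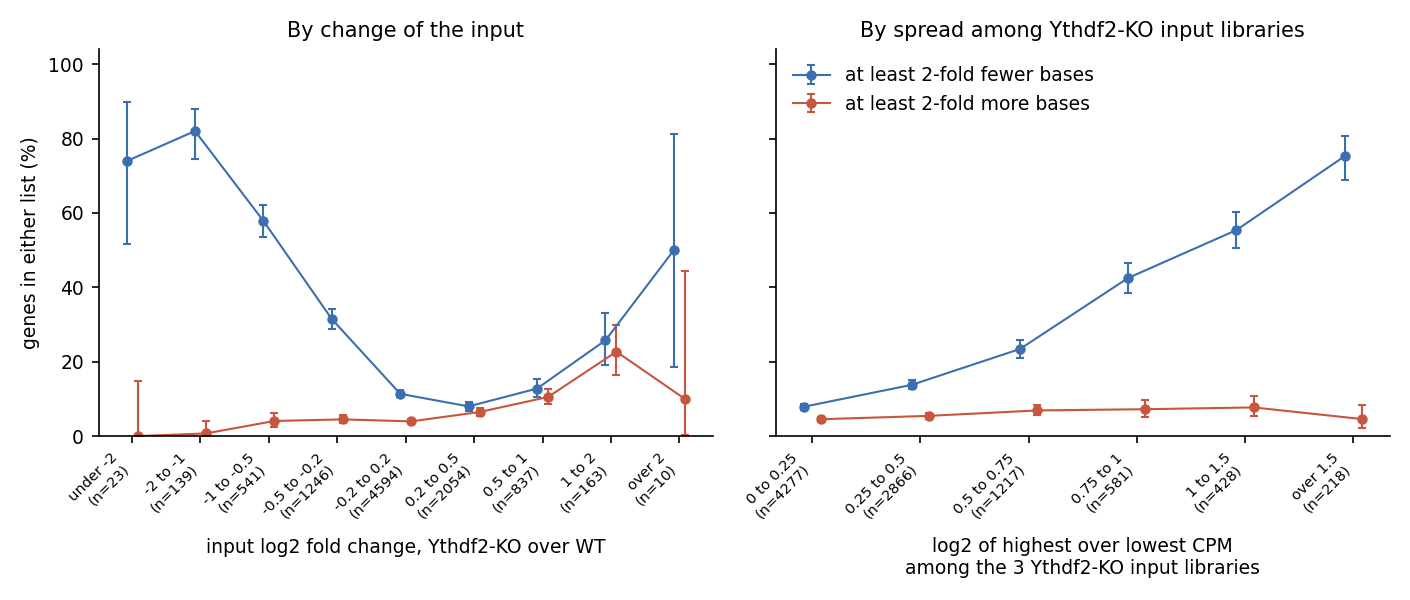
The left panel plots the share of genes (y axis, %) with at least 2-fold fewer (blue) or more (red) exonic m6A peak bases against the input log2 fold change, and the right panel against the log2 ratio of highest to lowest CPM among the 3 KO-labelled inputs, with 95% exact intervals. Fewer bases were most frequent at strong falls (82.0% between -2 and -1) and at wide disagreement (75.2% above 1.5), and least frequent near 0.2 to 0.5 (7.98%).

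Most genes of the m6A machinery had similar marked bases in both lists, with Mettl5, Igf2bp2 and Alkbh5 as exceptions. Ythdf2 (ENSMUSG00000040025.17, chromosome 4, 132184912 to 132212303, minus strand) had 1 long peak in each, of 1734 bases in WT and 1764 in Ythdf2-KO. Its input was 55.6, 68.6 and 59.7 CPM in WT and 67.9, 59.8 and 61.5 CPM in the KO-labelled ones (log2 fold change 0.04, SE 0.10, edgeR adjusted p = 0.809), and the groups overlap. How reads were counted was not given, and a gene edited at 1 site can still be transcribed, so this count is no check of the knockout, and directions below rest on the labels. Of 10 writer genes with a peak, 1 had fewer bases and 0 had more, against 17.7% and 5.51% over all genes, a share such small lists cannot be told from. Their bases summed to 12365 in WT and 12274 in Ythdf2-KO. Zc3h13, which anchors the writer complex in the nucleus, had 3505 and 3985 bases, Virma, its scaffold, 1653 and 1561, and Mettl14 661 and 781. The exception was Mettl5, a methyltransferase of ribosomal RNA, whose single WT peak of 239 bases has no counterpart. Its input was 19.4, 16.6 and 15.4 CPM in WT and 18.7, 18.4 and 17.9 CPM in KO-labelled libraries, which overlap (log2 fold change 0.10, SE 0.12, edgeR adjusted p = 0.590). None of the 11 tested writer genes was called in the input, with a median log2 fold change of 0.10.

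Of 10 readers with a peak, 1 had fewer bases. This was Igf2bp2, an RNA-binding protein of the IGF2BP family that is reported to stabilise m6A-bearing mRNA. It had 2 peaks and 422 bases in the WT list, both in the 3′ UTR, and none in the Ythdf2-KO list. Its input was 33.0, 39.1 and 36.2 CPM in WT and 27.3, 94.3 and 90.7 CPM in KO-labelled libraries. KO-labelled replicate 1 lay below every WT library and replicates 2 and 3 far above (log2 fold change 0.97, SE 0.41, edgeR adjusted p = 0.165; 8.49e-05 without KO-labelled replicate 1). The paralogues of YTHDF2 were marked as in WT, Ythdf1 with 1524 and 1465 bases and Ythdf3 with 1888 and 1828. Of the 2 erasers, Fto had 360 bases in both lists, and Alkbh5 had 991 and 392. The input of Alkbh5 was 139, 164 and 149.6 CPM in WT and 122, 233 and 226 CPM in KO-labelled libraries, again with replicate 1 apart (log2 fold change 0.36, SE 0.23, edgeR adjusted p = 0.326; 0.00147 without KO-labelled replicate 1).

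Genes of deadenylation and decay, the route YTHDF2 feeds, did not stand apart from all genes. Of 35 with a peak, 3 had fewer bases (8.57%, 1.8 to 23.1, against 17.7% over all genes) and none had more. Their bases summed to 26492 in WT and 23881 in Ythdf2-KO, a ratio of 0.901 against 0.900. The 3 were Cnot7, a deadenylase subunit of CCR4-NOT (689 and 269 bases), Cnot10 of the same complex (61 and 0) and Btg2, an antiproliferative cofactor of that complex (269 and 0). Btg2 rose in the input, from 3.64, 3.24 and 3.67 CPM in WT to 5.48, 6.89 and 8.75 CPM, with no overlap (log2 fold change 1.00, SE 0.20, edgeR adjusted p = 0.0426; 0.185 without WT replicate 3).

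Only 5 chemokine transcripts had a peak, of which 3 had fewer bases and 1 had more. That is a share with an interval of 14.7% to 94.7%, which includes the 17.7% over all genes. Cx3cl1 (ENSMUSG00000031778.13) went from 331 to 121 bases. Its input was 8.04, 6.69 and 6.38 CPM in WT and 12.6, 22.8 and 23.2 CPM in KO-labelled libraries, and it rose with no overlap (log2 fold change 1.47, SE 0.25, edgeR adjusted p = 0.0336; 0.176 without WT replicate 3). Ccl2, a monocyte attractant, went from 392 bases to 0. Its input was 67.8, 95.7 and 99.5 CPM in WT and 67.7, 271 and 269 CPM in KO-labelled libraries, so replicate 1 lay with WT (log2 fold change 1.21, SE 0.47, edgeR adjusted p = 0.143; 0.000366 without KO-labelled replicate 1). Cxcl10, an interferon-induced attractant of T cells, went from 565 to 209 bases: its 3′ UTR peak of 416 bases was in the WT list alone, and an upstream peak was in both. Its input was 76.7, 51.8 and 51.9 CPM in WT and 64.3, 195 and 198 CPM in KO-labelled libraries, and the groups overlap (log2 fold change 1.34, SE 0.40, edgeR adjusted p = 0.0856; 0.000408 without KO-labelled replicate 1). Ccl28 went from 0 to 91 bases at 0.776 to 1.68 CPM. Of the 14 chemokines tested in the input 1 was higher and 1 lower, against 2.99% and 1.54% of all genes tested. Their median log2 fold change was 1.06.

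NF-kB transcripts included several marked in the WT list alone. NF-kB is held in the cytosol by IkB proteins and, once freed, switches on genes of inflammation, among them its own inhibitors. Of 25 with a peak, 7 had fewer bases (28%, 12.1 to 49.4, against 17.7% over all genes) and 1, Nfkb2, had more (0 and 242). Nfkbia, which encodes the inhibitor IkBα, went from 239 bases to 0. Its input was 31.6, 38.4 and 42.8 CPM in WT and 35.9, 135 and 131 CPM in KO-labelled libraries, with replicate 1 inside the WT range (log2 fold change 1.42, SE 0.45, edgeR adjusted p = 0.0934; 0.000104 without KO-labelled replicate 1). Tnfaip3, the ubiquitin-editing brake on the pathway also called A20, went from 3 peaks and 723 bases to 1 peak and 61 bases, which overlaps none of the 3. Its input was 5.90, 5.30 and 5.59 CPM in WT and 6.86, 20.6 and 22.9 CPM in the KO-labelled ones (log2 fold change 1.58, SE 0.41, edgeR adjusted p = 0.0642; 7.47e-05 without KO-labelled replicate 1). Lif, a cytokine of the IL-6 family, went from 422 bases to 0. Its input was 9.73, 8.56 and 9.51 CPM in WT and 10.5, 37.3 and 39.5 CPM in the KO-labelled ones (log2 fold change 1.65, SE 0.44, edgeR adjusted p = 0.0700; 4.06e-05 without KO-labelled replicate 1). In both, no KO-labelled library reached down to WT, yet replicate 1 lay close to it.

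The other NF-kB genes with fewer bases were Tnip1 (1023 and 422), Rela (209 and 91), Ikbke (121 and 0) and Map3k14 (273 and 0). Not every strongly changed target was among them. Ptgs2, the inducible cyclooxygenase, kept 812 of 1050 bases and rose in the input, from 136, 105 and 108 CPM in WT to 171, 343 and 348 CPM (log2 fold change 1.31, SE 0.27, edgeR adjusted p = 0.0431; 0.196 without WT replicate 3). Csf1, the macrophage growth factor, kept 1434 of 1793 bases, with an input of 84.8 to 91.8 CPM in WT and 110.5, 225 and 225 CPM in the KO-labelled ones (log2 fold change 1.07, SE 0.25, edgeR adjusted p = 0.0550; 4.06e-05 without KO-labelled replicate 1). Nfkb2 is the precursor of a subunit, and Rela is the subunit p65. Of 28 tested genes of this list 1 was higher and 0 lower in the input, against 2.99% and 1.54% of all genes tested. Their median log2 fold change was 0.41 against -0.01 over all genes tested.

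**Figure D4:**
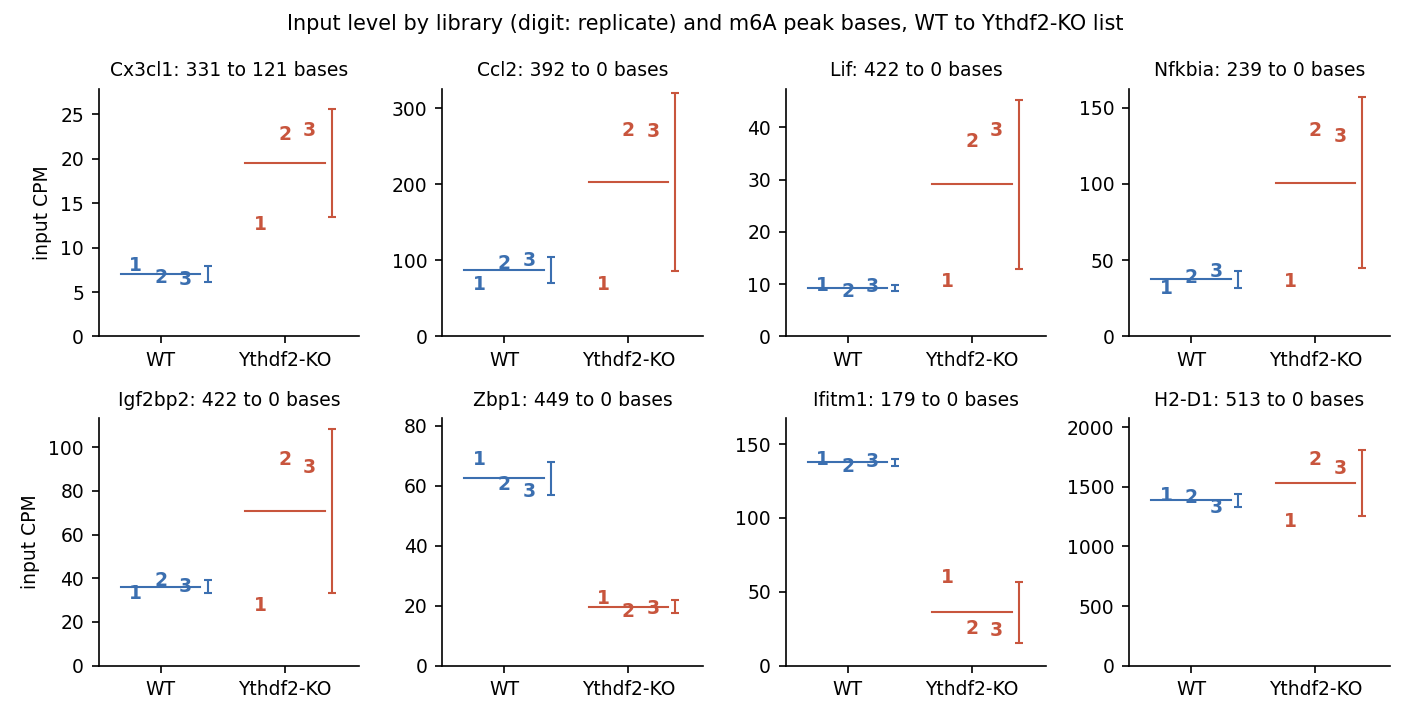
Input CPM (y axis, from 0) of 8 genes by library, digits giving the replicate, lines the group mean and bars the SD (n = 3), with WT and Ythdf2-KO m6A peak bases in each title. In Ccl2, Lif, Nfkbia and Igf2bp2 KO-labelled replicate 1 lies nearer to WT than replicates 2 and 3, which lie above all WT libraries, and in Zbp1 and Ifitm1 all 3 lie below WT.

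Immediate early genes, the first transcripts made after a growth or stress signal, had 25 members with a peak. Of these 5 had fewer bases (95% interval 6.83% to 40.7%, against 17.7% over all genes) and 2 more. Klf4, a transcription factor, fell in the input, from 78.7, 80.4 and 77.1 CPM in WT to 55.8, 42.6 and 41.8 CPM (log2 fold change -0.75, SE 0.12, edgeR adjusted p = 0.0310; 0.171 without WT replicate 3). It went from 1945 to 930 bases, over 3 peaks in WT and 4 in Ythdf2-KO. Dusp4, a phosphatase that restrains MAP kinases, went from 807 to 298 bases. Its input was 80.2, 96.9 and 98.0 CPM in WT and 84.5, 257 and 263 CPM in the KO-labelled ones (log2 fold change 1.14, SE 0.38, edgeR adjusted p = 0.107; 0.000104 without KO-labelled replicate 1). Junb (861 and 179), Btg2 and Nr4a1 (151 and 0) made up the 5. Here again marked bases were fewer in genes with a lower input and in genes with a higher one.

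Type I interferon-stimulated genes had fewer marked bases in sum, and a number of them fell in the input. Of 40 with a peak, 10 had fewer bases (25%, 12.7 to 41.2, against 17.7% over all genes) and 0 had more, and bases summed to 47450 in WT and 34360 in Ythdf2-KO, a ratio of 0.724 against 0.900 over all genes. In 8 of the 10 the KO-labelled inputs disagreed by more than 0.5 on the log2 scale, and the part of that in their peaks was not tested. Of the 50 tested in the input 10 were lower and 1 higher, against 1.54% and 2.99% of all genes tested, with a median log2 fold change of -0.53. Zbp1, a sensor of nucleic acids that triggers cell death, went from 1 strong 3′ UTR peak of 449 bases (chr2:173206732-173207180, score 2e-77) to 0. It fell in the input, from 68.8, 60.6 and 58.2 CPM in WT to 22.3, 18.0 and 18.9 CPM, with no overlap and little spread (log2 fold change -1.66, SE 0.11, edgeR adjusted p = 0.00719; 0.105 without WT replicate 2). Ifitm1, a membrane protein that blocks viral entry, went from 179 bases to 0. It fell in the input, from 139.6, 135 and 138 CPM in WT to 59.99, 25.03 and 23.7 CPM (log2 fold change -1.92, SE 0.34, edgeR adjusted p = 0.0353; 0.176 without WT replicate 3). Irf7, the factor that amplifies interferon transcription, went from 91 bases to 0 and fell from 30.7 to 35.7 CPM in WT to 17.6 to 23.2 CPM (log2 fold change -0.72, SE 0.13, edgeR adjusted p = 0.0344; 0.171 without WT replicate 3).

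Other members of the list differed in how input and bases went together. Gbp2, an interferon-induced GTPase, kept 661 of 751 bases. It fell in the input, from 84.6, 102 and 97.4 CPM in WT to 39.98, 43.3 and 46.8 CPM (log2 fold change -1.13, SE 0.10, edgeR adjusted p = 0.0101; 0.105 without WT replicate 2). Parp14, an ADP-ribosyltransferase, went from 3566 to 1741 bases at 100.5, 88.4 and 87.0 CPM in WT and 72.0, 38.2 and 41.7 CPM in the KO-labelled ones (log2 fold change -0.86, SE 0.23, edgeR adjusted p = 0.0699; 0.000155 without KO-labelled replicate 1). Samd9l had 163, 156 and 155 CPM in WT and 162, 66.4 and 66.9 CPM in KO-labelled libraries, so replicate 1 lay at the WT level (log2 fold change -0.68, SE 0.33, edgeR adjusted p = 0.216; 5.02e-05 without KO-labelled replicate 1). Herc6, an interferon-induced ubiquitin ligase gene outside this list, went the other way: it had 151 bases in WT and 422 in Ythdf2-KO. Its input fell from 65.9, 53.04 and 57.8 CPM to 41.3, 32.04 and 33.8 CPM (log2 fold change -0.72, SE 0.13, edgeR adjusted p = 0.0344; 0.176 without WT replicate 3).

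Among class I antigen presentation genes, 2 heavy chains and the light chain had fewer marked bases. Of 16 with a peak, 4 had fewer bases (25%, 7.27 to 52.4, against 17.7% over all genes) and 0 more. H2-D1 went from 4 peaks and 513 bases to 0, and its input was 1425, 1406 and 1325 CPM in WT and 1210, 1728 and 1651 CPM in KO-labelled libraries. These overlap (log2 fold change 0.14, SE 0.13, edgeR adjusted p = 0.501; 0.0140 without KO-labelled replicate 1). H2-K1 went from 1231 to 272 bases at 1494, 1426 and 1434 CPM in WT and 1169, 1592 and 1587 CPM in the KO-labelled ones (log2 fold change -0.00, SE 0.12, edgeR adjusted p = 0.994). Its strongest WT peak, of 660 bases (chr17:33999258-33999917, score 1e-129), was in the WT list alone. The best score of H2-K1 in the Ythdf2-KO list was 1e-128, and all 272 bases there were shared with the WT list. B2m, the common light chain, went from 387 to 149 bases at 788 to 827 CPM in WT and 658 to 893 CPM in KO-labelled libraries, and its 3′ UTR peak of 90 bases was in the WT list alone. The fourth, Psme3, is a proteasome activator (150 and 0 bases). The heavy-chain genes are near copies of one another, so reads and peaks could be misassigned among them. Tap2, a subunit of the peptide transporter, kept 508 of 538 bases and fell in the input, from 91.3, 84.6 and 87.0 CPM to 59.7, 50.6 and 55.6 CPM (log2 fold change -0.66, SE 0.08, edgeR adjusted p = 0.0209; 0.158 without WT replicate 3). Of 25 tested genes 6 were lower and 1 higher, against 1.54% and 2.99% of all genes tested. None of the 4 genes with fewer bases was among those called in the input.

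Of 43 cell cycle transcripts with a peak, 4 had fewer bases (9.30%, 2.59 to 22.1, against 17.7% over all genes) and 2 more, and bases summed to 41874 in WT and 41602 in Ythdf2-KO, a ratio of 0.994. In the input 11 of 51 tested were higher and 0 lower, against 2.99% and 1.54% of all genes tested, with a median log2 fold change of 0.43. Mki67, the proliferation antigen Ki-67, had 8506 bases in WT and 8745 in Ythdf2-KO. It rose in the input, from 434, 399.6 and 396 CPM to 597, 636 and 665 CPM (log2 fold change 0.63, SE 0.07, edgeR adjusted p = 0.0200; 0.150 without WT replicate 2). E2f8, an atypical E2F repressor, went from 421 to 902 bases and rose from 25.4, 26.6 and 24.5 CPM to 36.0, 43.8 and 43.8 CPM (log2 fold change 0.69, SE 0.11, edgeR adjusted p = 0.0293; 0.171 without WT replicate 3). Cdk2 (0 and 91) was the other gene with more bases, and Ccnb1 (61 and 0), Ccnb2 (89 and 0), Rb1 (60 and 0) and Rbl1 (211 and 61) had fewer.

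Of 29 stress-response genes with a peak, those of the unfolded protein response included, 3 had fewer bases (10.3%, 2.19 to 27.4, against 17.7% over all genes) and 0 more, at 19783 and 18826 bases. In the input 10 of 34 tested were higher and 0 lower, against 2.99% and 1.54% of all genes tested. Hspa5, the ER chaperone BiP, kept 1052 of 1142 bases. It rose from 1028, 983 and 978 CPM in WT to 1792, 2022 and 2045 CPM (log2 fold change 0.97, SE 0.07, edgeR adjusted p = 0.00822; 0.105 without WT replicate 2). The p53 list had 20 members with a peak, 6 with fewer bases (30%, 11.9 to 54.3, against 17.7% over all genes) and 1 with more. In the input 5 of its 25 tested genes were higher and 0 lower, against 2.99% and 1.54% of all genes tested. Plk2, a p53-induced kinase, went from 929 to 331 bases. Its input was 62.5, 70.6 and 73.2 CPM in WT and 85.5, 365 and 385 CPM in the KO-labelled ones (log2 fold change 2.02, SE 0.50, edgeR adjusted p = 0.0587; 2.05e-05 without KO-labelled replicate 1). Cdkn1a, the cell cycle inhibitor p21, went from 301 bases to 0, and Trp53 itself from 91 to 0.

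Extracellular matrix and mesenchymal genes had 29 members with a peak, of which 9 had fewer bases (31.0%, 15.3 to 50.8, against 17.7% over all genes) and 0 more. In the input 6 of 42 tested were higher and 1 lower, against 2.99% and 1.54% of all genes tested, with a median log2 fold change of 0.16. The members described next were chosen for fewer bases. Col1a2, a chain of type I collagen, went from 810 bases to 0. Its input was 62.0, 44.1 and 45.5 CPM in WT and 25.8, 2.34 and 2.47 CPM in KO-labelled libraries, all below WT, with replicate 1 well above the other two (log2 fold change -2.31, SE 0.88, edgeR adjusted p = 0.136; 4.06e-05 without KO-labelled replicate 1). Col6a2 went from 1950 to 570 bases at 515, 388 and 388 CPM in WT and 257, 76.5 and 83.0 CPM in the KO-labelled ones (log2 fold change -1.63, SE 0.46, edgeR adjusted p = 0.0757; 8.49e-05 without KO-labelled replicate 1). Thbs1, thrombospondin 1, went from 930 to 452 bases and fell from 123, 137 and 147 CPM to 67.2, 46.9 and 49.4 CPM (log2 fold change -1.32, SE 0.15, edgeR adjusted p = 0.0180; 0.141 without WT replicate 2). Of the 6 fibroblast markers with a peak, 4 had fewer bases, all of them collagens or Pdgfrb. The summed level of these markers is given above by group, and its part in the collagen values was not tested.

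In the remaining lists few members differed, except in glycolysis and in cholesterol and fatty acid synthesis. The share to read them against is 17.7% over all genes. Chromatin regulators had 56 members with a peak, and 1, Setd1b, had fewer bases (1113 and 271). Their bases summed to 117103 and 105884, a ratio of 0.904 against 0.900 over all genes. Lysosome and autophagy genes (27), the Hippo pathway (21), immunoregulatory molecules (14) and the SR and hnRNP splicing factors (26) each had 1 member with fewer bases and 1 with more, and respiratory chain subunits (18) had 1 with fewer. The splicing factor was Srsf6, which lost all 3 peaks and 1020 bases, the most of any list member absent from the Ythdf2-KO list. Its input was 223, 263 and 260.0 CPM in WT and 243, 144 and 151 CPM in KO-labelled libraries, which overlap (log2 fold change -0.47, SE 0.20, edgeR adjusted p = 0.167; 0.000945 without KO-labelled replicate 1). Glycolysis had 13 members with a peak, 4 with fewer bases (30.8%, 9.09 to 61.4) and 1 with more. Among the 4, Tpi1, triosephosphate isomerase, went from 270 bases at a score of 2e-65 to 0 at 1136 to 1392 CPM in WT and 1159 to 1539 CPM in the KO-labelled ones (log2 fold change 0.14, SE 0.13, edgeR adjusted p = 0.512). Cholesterol and fatty acid synthesis had 25, 5 with fewer (20%, 6.83 to 40.7) and 0 with more. Both intervals include the 17.7% over all genes.

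**Figure D5:**
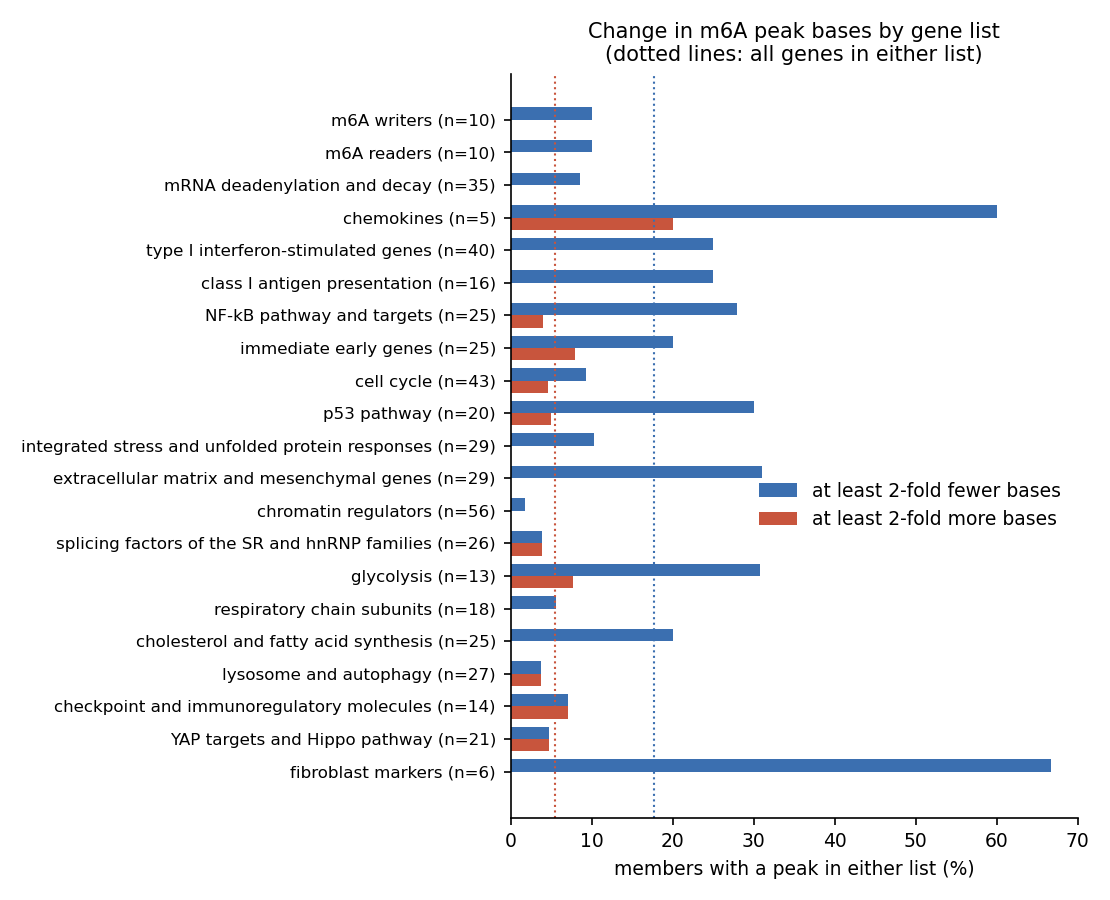
Bars give the share of members (x axis, %) with at least 2-fold fewer (blue) or more (red) exonic m6A peak bases in the Ythdf2-KO list, for lists with at least 5 members in either peak list, n beside each name. Dotted lines mark all genes, 17.7% fewer and 5.51% more; small lists such as chemokines (3 and 1 of 5) move by large steps.

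Gene families and biotypes differed in the same measure, and so did their expression. Of 8893 protein-coding genes 15.9% had fewer and 4.98% more bases, of 175 lincRNA genes 50.3% and 5.71%, and of 243 antisense genes 32.1% and 9.47%. Of WT peaks in antisense genes 57.1% lay under a peak of another gene on the opposite strand, and of Ythdf2-KO ones 64.8%, against 5.50% and 5.00% of all peaks. The sources used here do not say whether strand was kept, so antisense peaks cannot be told apart from those of the partner gene. Zinc finger genes of the Zfp family had 302 members, 28.8% with fewer and 4.97% with more. Their median input was 14.8 CPM against 44.9 CPM for protein-coding genes. Within 10 to 30 CPM, 20.8% of 130 Zfp genes had fewer bases against 19.6% of 1945 other protein-coding genes, and within 3 to 10 CPM 52.7% of 93 against 41.1% of 647. LincRNA genes at 10 to 30 CPM still stood at 43.8% of 32. Solute carriers (129) stood at 17.8% and 6.20%, kinesins (24) at 4.17% and 0, and collagens (17) at 41.2% and 0.

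Genes named for the largest differences follow, beginning with those marked in 1 list alone. Maf, a leucine zipper transcription factor, had 6 WT peaks and 2164 bases and none in the Ythdf2-KO list. Its input was 25.5, 24.8 and 24.7 CPM in WT and 13.4, 3.37 and 3.0 CPM in the KO-labelled ones (log2 fold change -1.92, SE 0.54, edgeR adjusted p = 0.0766; 2.66e-05 without KO-labelled replicate 1). Plin4, a lipid droplet coat protein, had 6 WT peaks and 1563 bases and fell in the input, from 19.8, 19.8 and 18.3 CPM to 8.49, 2.54 and 2.70 CPM (log2 fold change -2.07, SE 0.45, edgeR adjusted p = 0.0497; 0.192 without WT replicate 3). The other WT-alone genes named by size were Zfp469, Il6ra, Scara5 and Bmf, with 1165 to 1299 bases. Each of these 6 was lower in KO-labelled replicates 2 and 3 than in every WT library. On the other side, Prokr1, a receptor of prokineticins, had 4 peaks and 514 bases in the Ythdf2-KO list alone. It rose in the input, from 2.07, 2.02 and 1.69 CPM to 6.27, 6.44 and 8.07 CPM (log2 fold change 1.84, SE 0.18, edgeR adjusted p = 0.0130; 0.127 without WT replicate 2). Elf4, an ETS transcription factor, had 362 bases in the Ythdf2-KO list alone at 35.7, 34.7 and 33.7 CPM in WT and 34.8, 43.8 and 43.9 CPM in the KO-labelled ones (log2 fold change 0.23, SE 0.11, edgeR adjusted p = 0.201; 0.00727 without KO-labelled replicate 1). Nim1k, Iqcd, Atxn1 and Amn1 had 362 to 511 bases in that list alone.

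Other genes rose in the input and had more bases. Sstr5, a somatostatin receptor, went from 0 to 209 bases and rose from 0.296, 0.152 and 0.194 CPM to 1.5, 2.05 and 1.45 CPM (log2 fold change 2.94, SE 0.33, edgeR adjusted p = 0.0176; 0.137 without WT replicate 3). Hao1, a glycolate oxidase, went from 0 to 60 bases and rose from 2.31, 2.54 and 2.45 CPM to 7.07, 8.90 and 10.2 CPM (log2 fold change 1.84, SE 0.18, edgeR adjusted p = 0.0130; 0.127 without WT replicate 2). Spata13 (0 and 120 bases), Kank1 (0 and 121) and Sipa1l2 (212 and 570) rose with log2 fold changes of 1.89, 1.44 and 1.77 (SE 0.36, 0.22 and 0.26; edgeR adjusted p = 0.0391, 0.0291 and 0.0283). Without WT replicate 3 their edgeR adjusted p was 0.189, 0.171 and 0.171. All 5 of these genes lay under 6 CPM in every WT library. Zfpm1, a GATA cofactor also called FOG1, was marked in both lists and went from 452 to 1292 bases. It rose from 15.1, 13.9 and 12.5 CPM to 23.9, 40.03 and 44.8 CPM (log2 fold change 1.39, SE 0.23, edgeR adjusted p = 0.0333; 0.176 without WT replicate 3).

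Among genes that edgeR called lower, the largest falls with fewer bases are given below, Gm models and Rik clones left out. Mean CPM of these called genes in the KO-labelled inputs ran from 0.852 in Myh14 to 4.44 in Tenm4. Col1a2, described above, was not called and had a log2 fold change of -2.31. Myh14 (210 and 0 bases), Tenm4 (842 and 0), Tgtp1 (211 and 0), Dlx4 (91 and 0) and Cd48 (209 and 0) fell with log2 fold changes of -2.63, -2.50, -2.42, -2.15 and -2.12 (SE 0.41, 0.44, 0.52, 0.41 and 0.32). Their edgeR adjusted p was 0.0302, 0.0344, 0.0492, 0.0380 and 0.0293, and without WT replicate 3 it was 0.169 to 0.192. Tenm4, a synaptic teneurin, had 12.2, 29.6 and 33.6 CPM in WT and 6.62, 3.09 and 3.62 CPM in KO-labelled libraries. Tgtp1, an interferon-induced GTPase, had 8.70, 8.80 and 7.99 CPM in WT and 3.13, 0.813 and 0.788 CPM in KO-labelled libraries. In both genes every KO-labelled library lay below every WT one.

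Some genes had fewer bases and a higher input, or the reverse, and the named ones were taken from those edgeR called. Fam131b (450 and 0 bases), Atoh8 (61 and 0) and Rasl11a (206 and 0) rose in the input with log2 fold changes of 2.06, 1.66 and 1.39 (SE 0.35, 0.36 and 0.17; edgeR adjusted p = 0.0336, 0.0493 and 0.0201). Without WT replicate 3 the edgeR adjusted p was 0.176 for Fam131b and 0.207 for Atoh8, and without WT replicate 2 it was 0.150 for Rasl11a. Fam131b had 4.46, 4.06 and 3.67 CPM in WT and 8.43, 20.9 and 21.6 CPM in KO-labelled libraries, and its WT peak was centred just past the stop codon. Parp4 went from 0 to 121 bases while it fell, from 37.1, 37.8 and 37.0 CPM to 29.2, 25.9 and 26.6 CPM (log2 fold change -0.45, SE 0.08, edgeR adjusted p = 0.0378; 0.179 without WT replicate 3). With Herc6 it was 1 of the 2 genes called lower by edgeR that had more bases.

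The last named genes differed in marked bases without an edgeR call in the input, and of these only Ptger1 lay within 0.2 of 0 on the log2 scale. Ptger1, a prostaglandin E2 receptor, went from 1472 to 211 bases at 2.83, 2.72 and 3.20 CPM in WT and 2.64, 2.42 and 2.79 CPM in the KO-labelled ones (log2 fold change -0.16, SE 0.17, edgeR adjusted p = 0.567). Its WT peak of 1321 bases (chr8:83668764-83670084) had a score of 6.3e-89 and the Ythdf2-KO peak inside it one of 1.6e-44. Dido1, a chromatin-linked protein, went from 9 peaks and 3784 bases to 4 peaks and 1323 bases. All 5 WT peaks in the long exon near its stop codon were absent from the Ythdf2-KO list, while 3 of the other 4 WT peaks overlapped one. Its input was 117, 105 and 98.6 CPM in WT and 115, 82.5 and 69.8 CPM in the KO-labelled ones (log2 fold change -0.26, SE 0.18, edgeR adjusted p = 0.351; 0.00793 without KO-labelled replicate 1). Ticrr, a regulator of replication initiation, went from 3 peaks and 423 bases to 5 peaks and 1384 bases, with added peaks in coding sequence. Its input was 16.0, 19.8 and 17.9 CPM in WT and 19.2, 24.7 and 27.5 CPM in the KO-labelled ones (log2 fold change 0.41, SE 0.15, edgeR adjusted p = 0.134; 0.00897 without KO-labelled replicate 1). Whole-gene counts do not show whether isoforms with different last exons changed.

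Strong peaks were almost never confined to 1 list. At a score of 1e-50 or less, 27 of 5129 WT peaks and 3 of 5185 Ythdf2-KO peaks had no overlap in the other list. The genes below were picked from these after their values were seen. The 27 lay in 25 genes, among them Atf5, Neat1, Maf, Col1a2, Junb, Osr1, Hoxc6, Zbp1, Ccl2, Cxcl10, B2m, H2-D1, H2-K1 and Tpi1. They were not all separate places. The Neat1 peaks overlapped each other, and those of Ube2l3 and Ydjc coincided in part on opposite strands. In 12 of the 25 the KO-labelled inputs disagreed by more than 1 on the log2 scale, with a median of 0.898 against 0.283 over all genes in either list. The 3 Ythdf2-KO peaks were in Hmgb1, Polr1d and Gm10439, where that disagreement had a median of 0.190. Rpl21, Hmgn2 and Hmgb1, which were also among these genes, have many processed pseudogenes, so their reads and peaks could be shared with copies. Neat1, a nuclear long noncoding RNA, went from 1955 to 1113 bases, and Atf5, a stress-induced transcription factor, from 864 to 300. The input of Neat1 was 959, 753 and 797 CPM in WT and 599, 394 and 382 CPM in KO-labelled libraries, and edgeR called it lower. That of Atf5 was 195, 180 and 174 CPM in WT and 157, 47.5 and 43.6 CPM in KO-labelled libraries, and it was not called.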

How the data were processed

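Per the labels, RNA of MC38 cells was immunoprecipitated for m6A and sequenced beside its input. The authors deposited 1 peak list per group, whose score was read from its values as a p-value, and a table of raw counts per gene for the input libraries. The submitters' processing notes name HISAT2, HOMER, ChIPseeker and mm10 without roles. The caller, threshold and counting settings were not given in the sources used here.

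All 6 input libraries were fitted with edgeR 4.0.16 (quasi-likelihood test, TMM factors, Benjamini-Hochberg adjustment, threshold 0.05) under R 4.3.3; DESeq2 1.42.0 was an alternative. Peak blocks were merged per gene, overlap meant at least 1 shared exonic base, and regions came from GENCODE release M21, which matched 9801 of the 9807 genes. Intervals for shares are 95% exact binomial. The edgeR step was tested on simulated data.

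The members and gene lists were chosen with earlier results of these data known. Genes were drawn by size: the largest differences in bases in both lists or 1 list, and the largest input changes with or against the bases. Also drawn were the largest differences at a flat input, Ythdf2, Cx3cl1, all writers, erasers and readers, and up to 4 per list. Not all of these are named above. At a flat input Aspm, Macf1, Prr36, Rtf1 and Cep350, with larger sums of bases in the Ythdf2-KO list, are left out. So are Bicd1, Trim56, Akap9 and Kmt2d, with smaller sums. Spen, marked in both lists (4835 and 5943 bases), and writers and readers such as Wtap and Ythdc1 are left out too. Other genes named above (Zbp1, Ifitm1, Irf7, Gbp2, Nfkbia, Ptgs2, B2m, Psme3, Tap2, Mki67, Hspa5, Thbs1, Trp53, members that complete a count, and genes of strong peaks) were chosen after their values were seen. Same-numbered libraries correlated at 0.05, 0.11 and 0.05 in their deviations, so the numbers were not taken as pairs. Single immunoprecipitation libraries were not analysed here.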

Additional observations from a re-analysis of the deposited data

How the results depend on the processing

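The number of called genes depended on the fit. Against 568 higher and 293 lower, DESeq2 gave 2151 and 1142, upper-quartile factors 348 and 395, no filter on low counts 70 and 41, and the replicate block 45 and 26. Leaving out 1 library gave 0 to 3782 higher and 0 to 3144 lower, the highest without KO-labelled replicate 1. Replicate numbers were not shown to pair libraries, though each library correlated best with its own number. Of called-lower genes, 34.1% had fewer bases with upper-quartile factors and 54.5% with no filter, and 42.3% to 52.4% with a library left out. Of called-higher genes, 5.26% had more bases under the replicate block and 7.10% to 18.2% with a library left out, and 7.71% had fewer with DESeq2, 3.07% with upper-quartile factors and 4.55% to 9.11% with a library left out. Fits with fewer than 20 called genes in the lists gave no share; these shares were added after seeing the data.

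Asking for 50% of the exonic bases, 75.1% of WT and 86.2% of Ythdf2-KO peaks were shared, and with lists of equal length 85.5% and 86.5%. WT peaks were shared at 80.9% with a score of at most 1e-05 and 81.4% in genes of at least 1 CPM. By number of peaks 868 genes had more. At a flat input, which leaves 4594 genes, 522 had fewer bases, 182 more, 331 a peak in the WT list alone and 139 in the Ythdf2-KO list alone. Under the other thresholds tried, counts of genes with fewer or more bases stayed within 1.5 times. With lists of equal length, however, the sides moved in opposite directions: 1328 genes had fewer bases against 1737, and 692 more against 540. Genes with a peak in the WT list alone were then 779 against 1121, and in the Ythdf2-KO list alone 529 against 380. The excess of genes with fewer bases was thus smaller at equal length, but remained.

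The sign changed for 2 named genes that edgeR did not call. The log2 fold change of H2-K1 was 0.0021 with DESeq2, 0.0049 with no filter, and -0.072 to 0.13 with a library left out. That of Ythdf2 was -0.040 with upper-quartile factors and -0.036 to 0.14 with a library left out. The cause of these changes was not tested. Peaks have no replicates and the immunoprecipitation depth is unknown, so no difference in bases carries a replicate error.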
